A study of Homo sapiens with 8 samples.

Results

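TAS2R31 and 8 further bitter taste receptor genes, TAS2R14, TAS2R19, TAS2R20, TAS2R30, TAS2R46, TAS2R50, TAS2R4 and TAS2R5, were followed in ovarian cancer cells silenced for the splicing factor SFPQ. TAS2R31 was picked from an earlier look at these arrays because it fell with silencing in one cell line and not in the other, and the others were taken as its relatives, 6 of them beside it on chromosome 12 and 2 on chromosome 7. The 9 genes had 9 probes on 18 spots, out of 20503 named genes and 50599 probes on the array, and out of 25 bitter receptor genes with a probe. A probe entered the tests when both arrays of at least 1 group were marked well above background by the scanner software. This held for 6 of the 9 genes, and 2 of these, TAS2R31 and TAS2R30, were well above background on all 8 arrays. The values that chose TAS2R31 are given here as a description, without a test.

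Bitter taste receptors are G protein-coupled receptors of the TAS2R family, each encoded by a single coding exon, and most of the human genes sit in clusters on chromosomes 12 and 7. In taste cells a bound receptor activates gustducin, whose alpha subunit is GNAT3, then the phospholipase PLCB2, calcium release through the inositol trisphosphate receptor ITPR3 and the cation channel TRPM5, and the CALHM1 and CALHM3 channel releases the transmitter. TAS2R transcripts are also known outside the mouth, in airway, gut and several cancer cell types.

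MDAH (MDAH-2774) and SKOV3 are lines of epithelial ovarian cancer, and their total RNA was read on 8 single-colour Agilent arrays. Each line had 2 arrays of cells that were not silenced, called controls, and 2 of cells transduced with an shRNA against SFPQ, namely sh-SFPQ#2 on one and sh-SFPQ#3 on the other. Sources disagree on the controls: by the supplementary methods one was parental and one carried sh-ctrl, by the sample labels both carried a control shRNA, so only the absence of silencing defined them. The silenced arrays of a line therefore carried different shRNAs in transduced cells that were not cloned, the labels do not say that samples came from separate cultures, and p-values measure the spread between these samples only, which may be technical.

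All 8 arrays lay on 1 slide, each line in a row with its controls first, so slide position and group cannot be told apart. The 75th percentile of the processed signal was 244 on the MDAH sh-SFPQ#3 array and between 387 and 496 on the other 7, and 47.7 to 57.0% of the probes were well above background. Of 11 epithelial ovarian cancer markers, 9 were well above background on each MDAH array and 7 to 9 on each SKOV3 array. MUC16 did not reach this mark on the MDAH arrays, CDH1 on both SKOV3 controls, WT1 on all SKOV3 arrays and MSLN on all 8. Of 6 taste and tuft cell markers, PLCB2 was well above background on all 8 arrays, AVIL on the 4 SKOV3 arrays and 1 MDAH control, TRPM5 on 4 arrays and GFI1B on 2, while GNAT3 and the tuft cell factor POU2F3 were on none, and no marker of this list was called for silencing. Of 4 fibroblast markers, the collagen gene COL1A1 was measured on all 8 arrays, with a change of 1.14 (adjusted p = 0.098) in MDAH and 1.23 (0.107) in SKOV3, and was called as higher in the mean of both lines (1.18, adjusted p = 0.030). COL1A2 was well above background on 2 SKOV3 arrays, and PDGFRB and LUM on none. MUC16 was also called as higher in the mean (1.20, adjusted p = 0.040), and was well above background on the 2 silenced SKOV3 arrays only. The part of these markers in the receptor changes was not tested. Levels are log2 processed signals relative to the 75th percentile of the array, so a level of 0 is that percentile, and a change is silenced minus control on the same log2 scale.

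SFPQ, the silenced gene, stood at 3.64 and 3.91 in the MDAH controls, at 2.45 under sh-SFPQ#2 and at 2.10 under sh-SFPQ#3. The SKOV3 controls read 4.84 and 4.66, sh-SFPQ#2 gave 3.01 and sh-SFPQ#3 gave 2.48. The silenced arrays lay below both controls in each line, in the direction of the labels. The change was -1.50 ± 0.23 (SE, 2 arrays per group, limma adjusted p = 0.033) in MDAH and -2.01 ± 0.23 (adjusted p = 0.030) in SKOV3. These calls were close to the threshold, and 8 of the 20 other settings in MDAH and 7 of 20 in SKOV3 put the adjusted p above it.

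Most of the chromosome 12 receptors lie within one stretch. In RefSeq gene order the cluster runs TAS2R7, TAS2R8, TAS2R9, TAS2R10, PRR4, TAS2R13, TAS2R14, TAS2R50, TAS2R20, TAS2R19, TAS2R31, TAS2R46, TAS2R43, TAS2R30 and TAS2R42, followed by the salivary proline-rich protein genes PRB3, PRB4 and PRB2. All 7 chromosome 12 members fall inside the span of the read-through gene PRH1-PRR4. All the sequences printed here are of the minus strand, and PRH1-PRR4 and PRH1-TAS2R14 have no probe named here. The receptor genes of this stretch are close paralogs, and without the probe sequences it was not tested whether a probe also binds RNA of a neighbour.

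RefSeq start windows were at hand for 7 of the 9 receptors, but not for TAS2R46 or for TAS2R31, which is therefore not shown. The 250 bases before the start are shown for the receptor and proline-rich protein genes called as lower in the mean of both lines (TAS2R14, TAS2R10, PRR4 and PRB4, whose values follow) and for 2 receptors that were not, TAS2R30 and TAS2R19, on GRCh38.p14 and 5′ to 3′. Capitals mark the octamer ATGCAAAT, the letters bound by POU-domain factors, and the TATA box letters TATAAA, each on either strand; TATAAA and its reverse TTTATA overlap in PRR4 and PRB4. Both motifs were chosen after the values were seen.
TAS2R14 (chr12:10939264-10939513, minus strand): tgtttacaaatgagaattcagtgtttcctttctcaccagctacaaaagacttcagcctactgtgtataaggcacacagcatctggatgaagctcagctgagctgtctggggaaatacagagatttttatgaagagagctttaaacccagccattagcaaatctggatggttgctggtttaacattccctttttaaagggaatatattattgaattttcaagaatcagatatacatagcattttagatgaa
TAS2R10 (chr12:10826359-10826608, minus strand): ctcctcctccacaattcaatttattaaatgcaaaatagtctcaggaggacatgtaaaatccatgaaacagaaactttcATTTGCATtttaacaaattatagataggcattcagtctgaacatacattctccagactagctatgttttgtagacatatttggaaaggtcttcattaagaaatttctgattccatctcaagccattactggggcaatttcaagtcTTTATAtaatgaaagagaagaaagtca
PRR4 (chr12:10849476-10849725, minus strand): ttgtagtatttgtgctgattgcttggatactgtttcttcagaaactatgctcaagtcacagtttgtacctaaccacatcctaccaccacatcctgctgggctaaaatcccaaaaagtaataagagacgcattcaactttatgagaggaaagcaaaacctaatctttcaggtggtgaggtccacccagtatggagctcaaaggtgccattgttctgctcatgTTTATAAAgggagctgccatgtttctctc
PRB4 (chr12:11310437-11310686, minus strand): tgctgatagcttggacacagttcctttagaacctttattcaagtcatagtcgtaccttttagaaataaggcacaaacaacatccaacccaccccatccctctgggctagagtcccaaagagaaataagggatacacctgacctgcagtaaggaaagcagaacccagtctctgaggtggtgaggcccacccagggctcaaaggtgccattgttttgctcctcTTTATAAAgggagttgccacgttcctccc
TAS2R30 (chr12:11134645-11134894, minus strand): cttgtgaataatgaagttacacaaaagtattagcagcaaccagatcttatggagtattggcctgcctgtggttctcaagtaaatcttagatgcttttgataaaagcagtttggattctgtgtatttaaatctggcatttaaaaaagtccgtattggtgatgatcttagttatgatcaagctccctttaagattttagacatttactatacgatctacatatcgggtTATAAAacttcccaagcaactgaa
TAS2R19 (chr12:11022621-11022870, minus strand): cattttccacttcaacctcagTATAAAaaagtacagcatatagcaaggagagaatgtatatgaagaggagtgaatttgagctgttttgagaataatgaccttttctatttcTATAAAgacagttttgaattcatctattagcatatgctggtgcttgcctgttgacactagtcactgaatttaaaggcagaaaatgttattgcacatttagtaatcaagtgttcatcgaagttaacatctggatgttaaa

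The octamer was present in 10 of 20 bitter receptor windows (50%) and in 573 of all 35116 windows (1.63%). Of the 7 member windows only that of TAS2R5 held it, 49 bases before the start, and of the 6 sequences above only TAS2R10, 172 bases before it. TATAAA or its reverse was present in 3763 of all 35116 windows, with the first base 27 to 29 bases before the start in PRR4, PRB4 and TAS2R10, 24 bases before it in TAS2R30, 139 and 229 bases before it in TAS2R19, and nowhere in the TAS2R14 window. The last 50 bases before the start were 86.0% identical between PRR4 and PRB4, compared base by base without gaps, and 26.0% identical between PRR4 and TAS2R14. These letters describe the windows and were not set against binding of any factor.

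TAS2R31, one of the receptors of the middle of the cluster, was lower in silenced than in control MDAH cells. Its level was -1.36 and -1.38 in the 2 MDAH controls and -3.06 with both sh-SFPQ#2 and sh-SFPQ#3. The SKOV3 controls read -1.07 and -1.40, and the silenced SKOV3 cells -1.10 (sh-SFPQ#2) and -1.01 (sh-SFPQ#3). The 2 silenced MDAH arrays were low and lay apart from the 6 others, which overlapped each other. The change was -1.69 ± 0.16 (SE), 3.24-fold lower, in MDAH and 0.18 ± 0.16 in SKOV3, and the change in MDAH minus that in SKOV3 was -1.88 ± 0.23. With normexp background correction, which adds an offset to all signals, the same values were -0.81, 0.07 and -0.88.

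Across all 15552 genes tested, 15 (0.0965%) passed an adjusted p under 0.05 for the difference between the lines, and none of these 15 was well above background on all 8 arrays. Among the 12383 genes that were, the difference of TAS2R31 ranked 62nd by its size.

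**Figure D1:**
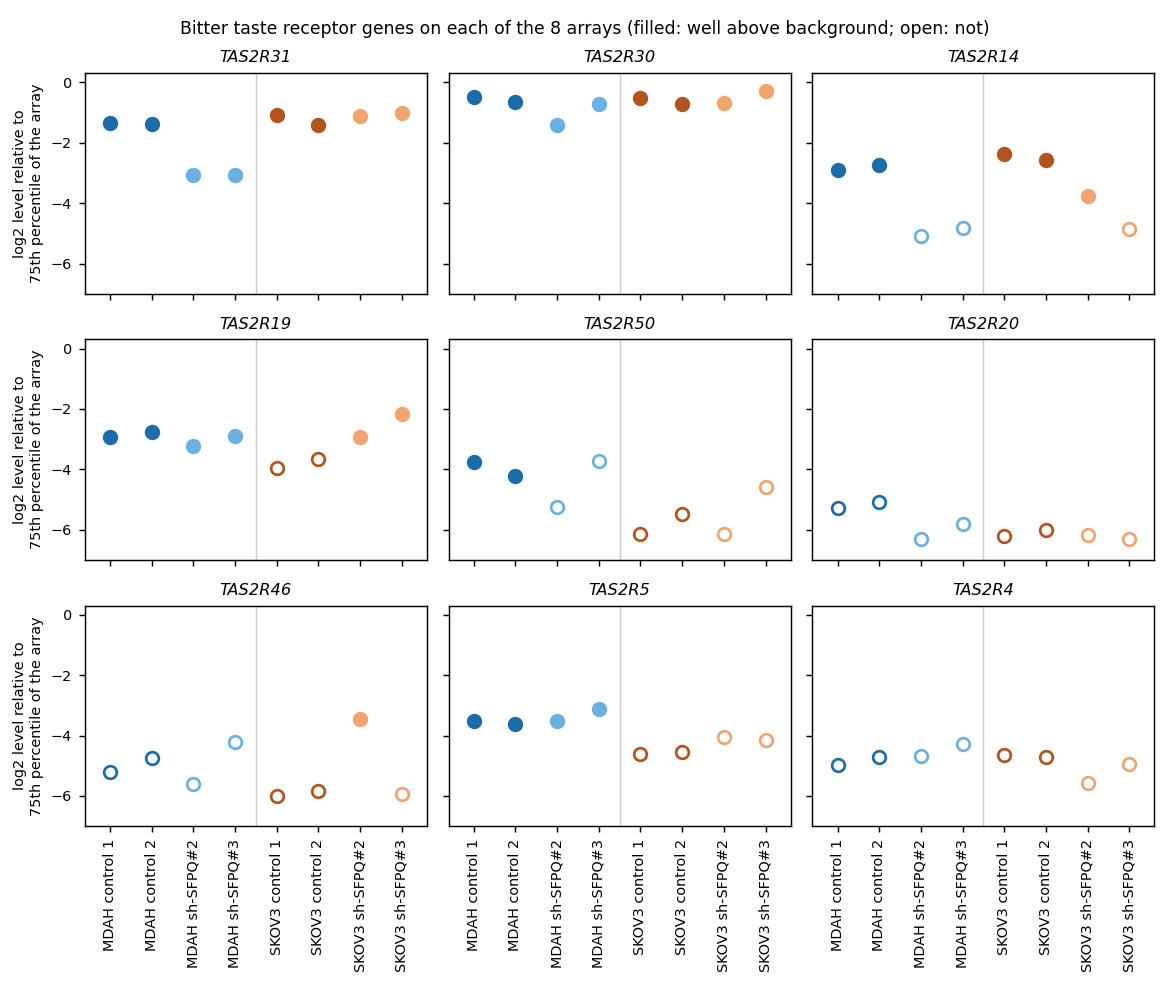
Level of each of the 9 receptor genes (y axis, log2 relative to the 75th percentile of the array) on the 8 arrays (x axis, blue for MDAH and orange for SKOV3, dark for controls and light for silenced cells). Filled points are well above background and open points are not. TAS2R31 is low on both silenced MDAH arrays only, at -3.06, and TAS2R14 is low on the silenced arrays of both lines.

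TAS2R30, the other receptor measured on every array, changed less. It stood at -0.49 and -0.64 in the MDAH controls, -1.40 under sh-SFPQ#2 and -0.73 under sh-SFPQ#3. The SKOV3 controls read -0.50 and -0.72, sh-SFPQ#2 gave -0.68 and sh-SFPQ#3 gave -0.30. Both silenced MDAH arrays lay below both controls, by little with sh-SFPQ#3, and the SKOV3 groups overlapped. The change was -0.50 (95% interval -1.11 to 0.11, adjusted p = 0.287) in MDAH and 0.12 (interval -0.49 to 0.74, adjusted p = 0.811) in SKOV3. The difference between the lines was -0.63 (interval -1.49 to 0.24, adjusted p = 0.440). Each of these intervals holds 0.

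TAS2R14, a receptor that recognizes many unrelated bitter compounds, fell in MDAH and in the mean of both lines, and in SKOV3 its lower readings did not pass the test. It had 1 probe on 10 spots. Its level was -2.91 and -2.73 in the MDAH controls, -5.10 under sh-SFPQ#2 and -4.83 under sh-SFPQ#3. It was -2.37 and -2.58 in the SKOV3 controls, -3.77 under sh-SFPQ#2 and -4.85 under sh-SFPQ#3. All 4 silenced arrays lay below all 4 controls, and the probe was not well above background with either shRNA in MDAH or with sh-SFPQ#3 in SKOV3. A probe counted as well above background on an array when at least 0.5 of its spots did.

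The replicate spots of TAS2R14 gave the same order. In the MDAH controls 10 of 10 spots were well above background on each array, from -3.03 to -2.76 on the first and from -2.94 to -2.56 on the second. With sh-SFPQ#2 and sh-SFPQ#3 none of the 10 spots was, and the highest was -4.61 and -3.48. In SKOV3 cells 8 of 10 spots were still well above background with sh-SFPQ#2, and the 10 ran from -4.83 to -3.33, against 0 of 9 with sh-SFPQ#3. Every spot on a silenced array thus lay below every spot on a control array of its line. Spots of one array share its RNA and are no replicates of the silencing.

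**Figure D2:**
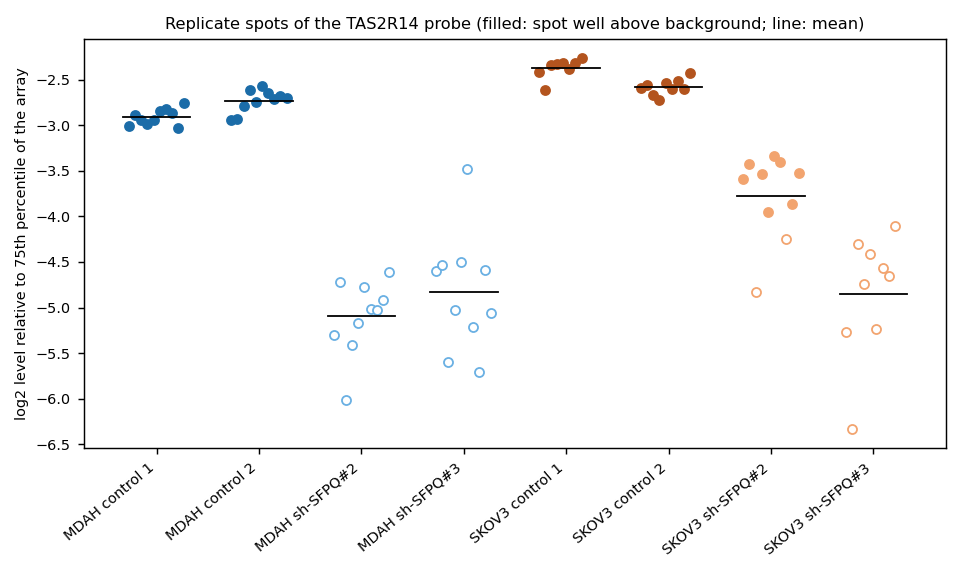
Each point is 1 spot of the TAS2R14 probe (y axis, log2 level relative to the 75th percentile of the array; x axis, the 8 arrays), filled where the spot was well above background, and lines are means. The control spots lie between -3.03 and -2.26, and the silenced spots between -6.34 and -3.33.

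For TAS2R14 the fitted change in MDAH was -2.15 ± 0.34 (SE, adjusted p = 0.034). Since neither silenced array measured it, the decrease is given as a bound of at least 2.35-fold. The mean was -2.82 in the controls, and the silenced arrays gave a mean reading of -4.96 that was not well above background. In SKOV3 the change was -1.83 ± 0.34 (adjusted p = 0.072), from -2.48 to -4.31, with 1 of 2 silenced arrays well above background. The mean of both lines was -1.99 ± 0.24 (adjusted p = 0.012). The lines differed by -0.31 (interval -1.46 to 0.83, adjusted p = 0.769), a value that rests in part on arrays where the probe was not well above background. TAS2R14 entered the tests through the controls, in which it was high.

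TAS2R31 aside, TAS2R14 was the 1 member called in MDAH, where 2.04% of all genes tested were called (1.61% as lower, which is 79.2% of the calls, or 62.7% with median centring), and the 1 called in the mean of both lines, where 5.56% of all genes were (64.5% of them lower, or 48.1% with median centring). No member was called in SKOV3, where 0.984% of all genes were, nor for the difference between the lines. The 8 receptors besides TAS2R31 had 5 probes in these tests. The call of TAS2R14 in MDAH did not hold without MDAH control 1 (adjusted p = 0.269), control 2 (0.203), sh-SFPQ#2 (0.053) or sh-SFPQ#3 (0.104), or without either SKOV3 control (0.065 each), and that in the mean of both lines not without MDAH control 1 (0.085) or 2 (0.076). With normexp the change in MDAH was -0.59 (adjusted p = 0.061).

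TAS2R19 had higher readings in silenced than in control SKOV3 cells, a change that did not pass the test. It stood at -2.93 and -2.77 in the MDAH controls, -3.22 under sh-SFPQ#2 and -2.89 under sh-SFPQ#3. In SKOV3 it stood at -3.94 and -3.67 in the controls, where it was not well above background, at -2.92 with sh-SFPQ#2 and at -2.16 with sh-SFPQ#3. The MDAH groups overlapped, and both silenced SKOV3 arrays lay above both controls. The change was -0.20 ± 0.27 (adjusted p = 0.689) in MDAH. In SKOV3 it was 1.27 ± 0.27 (interval 0.61 to 1.93, adjusted p = 0.091), a fitted 2.41-fold from a mean of -3.81 to -2.54. That fold rests on control readings that were not well above background. The difference between the lines was -1.47 ± 0.39 (adjusted p = 0.227). In SKOV3 the change was called with the replicate number as a block (adjusted p = 0.034) and without sh-SFPQ#2 (0.029), and with normexp the change was 0.43.

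TAS2R50 was well above background on the 2 MDAH controls only, at -3.76 and -4.21. It read -5.25 with sh-SFPQ#2 and -3.72 with sh-SFPQ#3, so that the MDAH groups overlapped (change -0.50, adjusted p = 0.673). On the SKOV3 arrays it read between -6.14 and -4.58.

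TAS2R5, on chromosome 7, was well above background on the 4 MDAH arrays, with -3.50 and -3.63 for the controls, -3.53 for sh-SFPQ#2 and -3.13 for sh-SFPQ#3. On the SKOV3 arrays it was not, with values from -4.61 to -4.05. Its MDAH groups overlapped, with a change of 0.23 ± 0.17 (adjusted p = 0.456).

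The other 3 receptors entered no test. TAS2R20 and TAS2R4 were well above background on no array, with readings from -6.31 to -5.09 and from -5.58 to -4.27. TAS2R46 was well above background on 1 array, SKOV3 with sh-SFPQ#2, at -3.45, and read -5.99 to -4.20 on the other 7.

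Among the receptors tested besides TAS2R31, both silenced arrays lay below both controls for TAS2R14 and TAS2R30 in MDAH, 2 of 5, against 21.4% of all genes tested. In SKOV3 this held for TAS2R14, 1 of 5, against 31.9% of all genes. Both silenced arrays lay above both controls in SKOV3 for TAS2R19 and TAS2R5, the latter not well above background on the SKOV3 arrays, against 26% of all genes. TAS2R14 was below in both lines, as were 10.2% of all genes. None of the 5 lay below in MDAH and above in SKOV3, an arrangement that 3.37% of all genes showed, and TAS2R31 did not show it either because its SKOV3 groups overlapped.

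The controls of the lines differed from each other. Of the 5 receptors besides TAS2R31, 3 were higher in the MDAH than in the SKOV3 controls, where 57.4% of all genes differed and 26.8% were higher in MDAH. TAS2R5 differed by 1.02 ± 0.17 (adjusted p = 0.0026), at least 1.34-fold, from a mean of -4.58 in SKOV3 to -3.56 in MDAH. TAS2R19 differed by 0.96 ± 0.27 (interval 0.30 to 1.61, adjusted p = 0.022), a fitted 1.94-fold, from -3.81 to -2.85. TAS2R50 differed by 1.82 ± 0.65 (adjusted p = 0.049), at least 1.004-fold, from -5.80 to -3.98. All 3 were well above background on both MDAH controls and on neither SKOV3 control, so they entered the test through the group in which they were high. The call of TAS2R19 was lost without MDAH control 1 (adjusted p = 0.071) or 2 (0.105) or SKOV3 control 1 (0.110), and that of TAS2R50 without any 1 of the 4 controls (0.077 to 0.195). TAS2R31, TAS2R30 and TAS2R14 were well above background on all 4 controls.

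The 16 bitter receptor genes outside the list were mostly unmeasured, with 12 well above background on no array and 3 tested. TAS2R10, at the other end of the cluster, stood at -3.36 and -3.78 in the MDAH controls and -2.64 and -2.71 in the SKOV3 controls. It was not well above background on any silenced array, with -6.60 and -5.14 in MDAH and -4.84 and -5.33 in SKOV3 for sh-SFPQ#2 and sh-SFPQ#3. All 4 silenced arrays lay below all 4 controls. TAS2R10 entered the tests through the controls, in which it was high, and its readings were at least 1.40-fold lower in MDAH and at least 2.74-fold lower in SKOV3. The fitted changes, against readings not well above background, were -2.30 (adjusted p = 0.063) and -2.40 (adjusted p = 0.074), with a mean of both lines of -2.35 ± 0.32 (adjusted p = 0.018). The last call was lost without any 1 of the 4 controls (adjusted p = 0.054 to 0.109), and the mean of both lines was -0.65 with normexp.

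TAS2R43, next to TAS2R30, was -3.30 and -2.84 in the MDAH controls, -4.62 with sh-SFPQ#2, where it was not well above background, and -3.13 with sh-SFPQ#3. The SKOV3 controls read -2.80 and -3.19, sh-SFPQ#2 gave -2.78 and sh-SFPQ#3 gave -2.12. The MDAH groups overlapped. In SKOV3 both silenced arrays lay above both controls, by little with sh-SFPQ#2, as for 26% of all genes tested. No change was called (-0.80 in MDAH and 0.54 in SKOV3, adjusted p = 0.365 and 0.568). TAS2R45 was well above background on all 8 arrays, between -3.46 and -2.53, with a change of 0.12 in MDAH and -0.06 in SKOV3 (adjusted p = 0.765 and 0.898).

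Of the genes next to the clusters, 31 had a probe and 20 were tested. PRR4, a salivary and tear proline-rich protein that lies between TAS2R10 and TAS2R14, was at 0.24 and 0.04 in the MDAH controls, -2.37 under sh-SFPQ#2 and -3.38 under sh-SFPQ#3. The SKOV3 controls read -0.29 and -0.49, sh-SFPQ#2 gave -2.41 and sh-SFPQ#3 gave -3.75. All silenced arrays lay below all controls, and the probe was not well above background on the MDAH sh-SFPQ#3 array. The change was -3.02 ± 0.48 (adjusted p = 0.036) in MDAH and -2.69 ± 0.48 (adjusted p = 0.067) in SKOV3, with a mean of -2.86 ± 0.34 (adjusted p = 0.012). With the replicate number as a block the change of PRR4 in SKOV3 was called too (adjusted p = 0.0074). A second PRR4 probe read 0.24 and 0.19 in the MDAH controls and -2.98 and -5.09 in the silenced cells.

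PRB4, a salivary proline-rich protein beyond the other end of the cluster, was -2.28 and -2.16 in the MDAH controls and -3.84 and -3.37 with sh-SFPQ#2 and sh-SFPQ#3. In SKOV3 it was -2.13 and -2.45 in the controls and -3.43 and -4.19 with these shRNAs, not well above background with sh-SFPQ#3. Its changes were -1.39 (adjusted p = 0.072) and -1.52 (adjusted p = 0.077), with a mean of -1.45 ± 0.21 (adjusted p = 0.020), and its second probe was well above background on no array. PRB3, its neighbour, lay between -1.59 and -1.12 on all 8 arrays.

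PRR4 was the 1 gene next to the clusters called in MDAH, and none was called in SKOV3 or for the difference, against 2.04%, 0.984% and 0.0965% of all genes. In the mean of both lines PRR4, PRB4 and BORCS5, a lysosome positioning factor (-0.58 ± 0.12, adjusted p = 0.048), were called as lower and none as higher, against 3.59% of all genes called as lower. The call of PRR4 in MDAH was lost without MDAH control 1 (adjusted p = 0.295), control 2 (0.188), sh-SFPQ#3 (0.127) or either SKOV3 control (0.067 each). Those of PRR4 and PRB4 in the mean were lost without MDAH control 1 (0.093 and 0.109) or 2 (0.073 and 0.094), and that of PRB4 also without SKOV3 control 1 (0.067). LINC01252 had the largest fall in MDAH among the tested genes next to the clusters, -3.33 ± 0.69, which was not called (adjusted p = 0.070). Its controls there read -1.33 and -1.67, against -3.61 under sh-SFPQ#2 and a reading not well above background, -6.05, under sh-SFPQ#3. No SKOV3 array had it well above background. On its second, dimmer probe the MDAH groups overlapped, at -4.10 and -3.60 in controls and -3.93 and -5.52 in silenced cells. The largest other changes among genes measured in both groups were WEE2-AS1 (-0.89) and KLRC4 (0.77) in MDAH and BORCS5 (-0.74) and DENND11 (-0.38) in SKOV3, none called. For the difference between the lines they were SSBP1 (0.46), BORCS5 (0.32) and ETV6 (-0.32), and in the mean of both lines GABARAPL1 (0.51) and ETV6 (-0.41), none of these called. Another ETV6 probe, well above background on every array, went the other way. Its mean rose from -2.69 in controls to -1.90 in silenced MDAH cells and from -3.47 to -2.81 in SKOV3.

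Between the controls 14 of the 20 were called, 13 of them higher in MDAH, against 57.4% of all genes called and 26.8% called as higher in MDAH. The 7 with a bound that were higher in MDAH were not well above background on the SKOV3 controls and entered the tests through MDAH. Measured on both sides were GABARAPL1 (3.22), YBX3 (1.61), MAGOHB (1.47), BORCS5 (1.29) and SSBP1 (0.61), and KLRA1P (1.07) was in part. Another MAGOHB probe, well above background on every array, was not higher in MDAH, with control means of -3.12 in MDAH and -2.97 in SKOV3. STYK1 was at least 18.04-fold higher in MDAH, LINC01252 at least 5.61-fold, WEE2-AS1 at least 5.02-fold, LOH12CR2 at least 4.18-fold, KLRC4 at least 2.09-fold, KLRC3 at least 1.41-fold and KLRC1 at least 1.27-fold. MANSC1 was at least 21.3-fold higher in SKOV3.

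**Figure D3:**
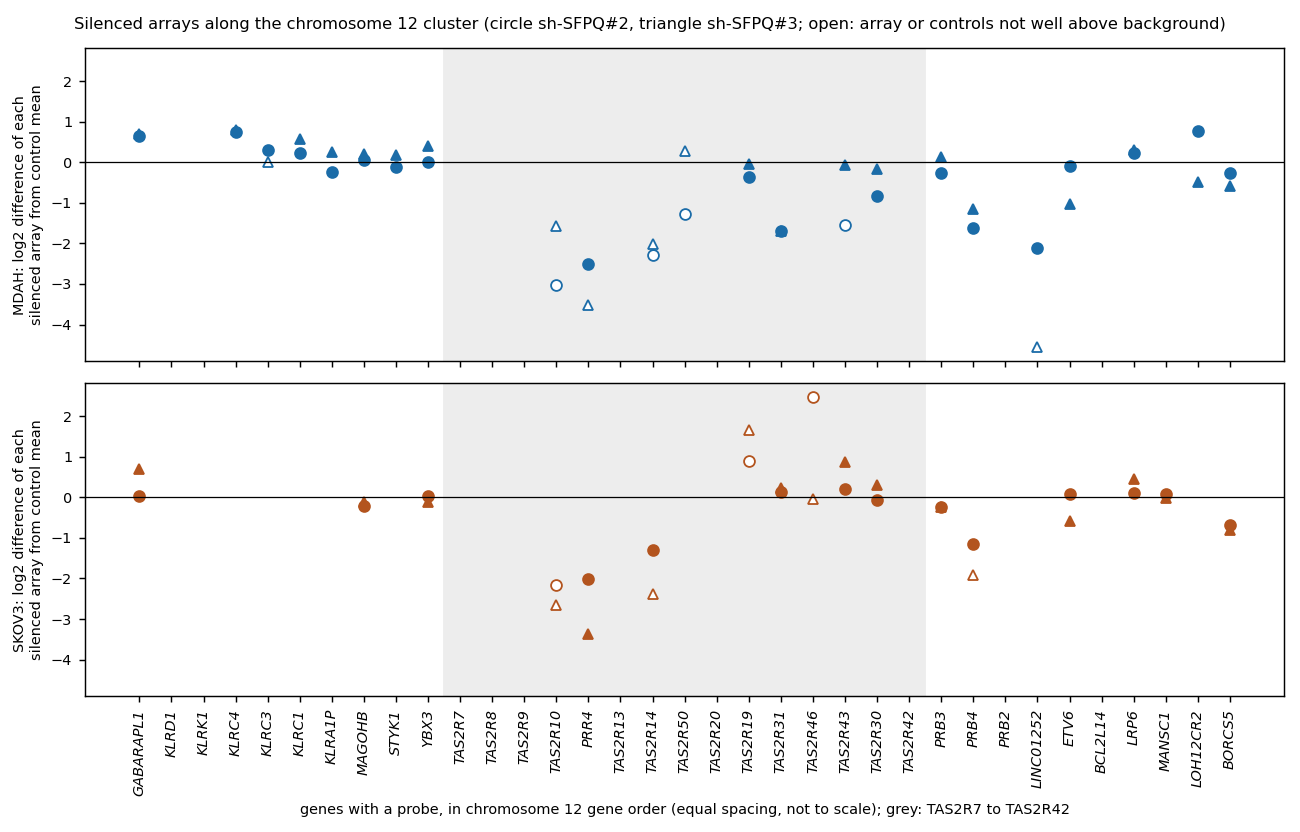
Difference of each silenced array from the mean of the controls of its line (y axis, log2; MDAH above, SKOV3 below; circles sh-SFPQ#2, triangles sh-SFPQ#3) for genes with a probe in chromosome 12 gene order (x axis, equally spaced). Points are open where the array or a control was not well above background, and genes with neither group measured have none. TAS2R10, PRR4, TAS2R14 and PRB4 lie below 0 in both lines, while TAS2R31 lies near -1.69 in MDAH and near 0 in SKOV3.

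TAS2R14, TAS2R10, PRR4 and PRB4 were set together for their calls as lower in the mean of both lines. Low values in each line follow in part from that choice. With the lines side by side, their changes were -3.02 to -1.39 in MDAH and -2.69 to -1.52 in SKOV3. TAS2R31 had -1.69 in MDAH and 0.18 in SKOV3.

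**Figure D4:**
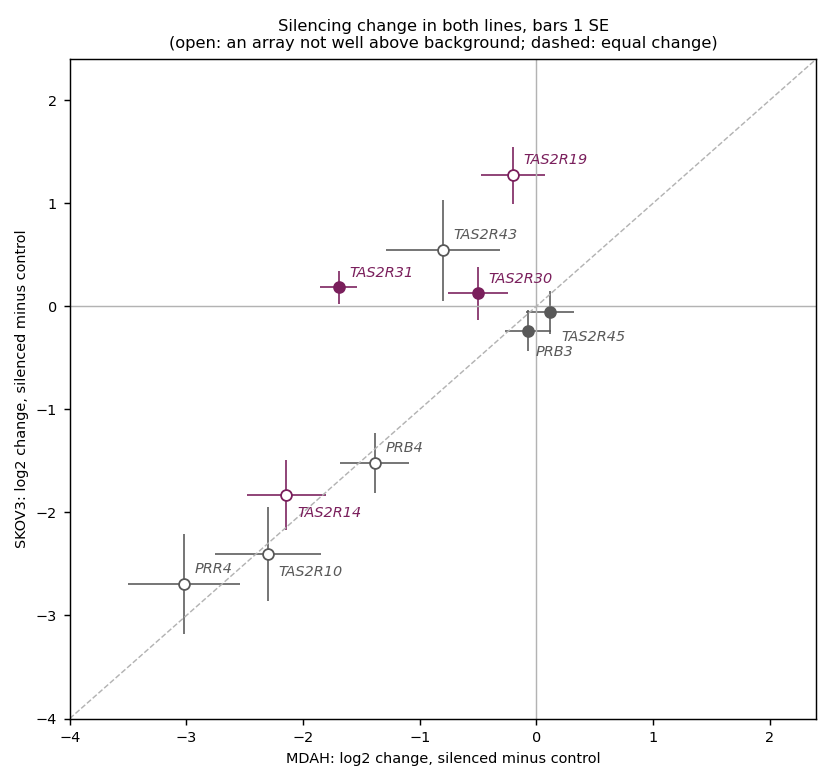
Change with silencing in MDAH (x axis) against SKOV3 (y axis), both log2, with bars of 1 SE, for the tested receptors measured in some group of each line and 3 proline-rich protein genes. Purple points are members and grey points are not, and open points have an array that was not well above background. TAS2R14, TAS2R10, PRR4 and PRB4 lie along the dashed line of equal change, and TAS2R31 lies at -1.69 and 0.18.

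As a description over the 8 arrays, which share 4 groups and the scaling of each array, TAS2R31 correlated with TAS2R30 at r = 0.76, with TAS2R43 at 0.73, with TAS2R14 at 0.63, with TAS2R10 at 0.62, with TAS2R19 at 0.03, with TAS2R50 at -0.33, with TAS2R45 at -0.63 and with TAS2R5 at -0.69. TAS2R30 and TAS2R43, adjacent genes, correlated at 0.92. TAS2R14 correlated with TAS2R10 at 0.95, with PRB4 at 0.93 and with PRR4 at 0.91. These 4 genes were set together because each was called as lower in the mean of both lines on these arrays. High values follow in part from that choice, and no rank over all genes is given for them. Among silenced arrays TAS2R10 was well above background on none and TAS2R14 only on SKOV3 with sh-SFPQ#2. These correlations thus set controls against readings that were mostly not well above background, and a shared regulation was not tested. Among the 15551 other genes tested, TAS2R30 ranked 618 by its correlation with TAS2R31.

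The genes most like TAS2R31 by Pearson correlation were KLHL13 (0.97), the water channel AQP1 (0.97), the lymphoid transcription factor IKZF1 (0.97), ANXA2R-AS1 (0.97) and the calcium exchanger SLC24A3 (0.97). KLHL13, which was at -0.10 and 0.22 in the MDAH controls and -1.05 and -0.87 in the silenced MDAH cells, lay between 0.04 and 0.24 on the SKOV3 arrays. AQP1 was at -1.56 and -2.33 in the MDAH controls and -4.64 and -5.98 in the silenced cells, against -1.51 to -0.97 in SKOV3. Detection of AQP1 is not given here. CALHM3, which read -4.48 and -5.97 on the same silenced MDAH arrays, was not well above background there. The least like were the peptidase TPP2 (-0.99) and the RNA-degrading enzyme PNPT1 (-0.99), both higher in the silenced MDAH cells. TPP2 read 1.78 and 1.73 in the MDAH controls and 2.53 on both silenced arrays.

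The signalling chain behind the receptors was only partly measured. Of 27 genes, 11 were well above background on all 8 arrays and 8 on none, with GNAT3, CALHM1, the regulator RGS21 and POU2F3 among the latter. PLCB2, the beta and gamma subunit genes GNB1, GNB3 and GNG13, ITPR1, ITPR2, ITPR3, the channel TRPM4 and the inhibitory alpha subunits GNAI1, GNAI2 and GNAI3 were measured throughout. TRPM5 was well above background on 4 arrays. CALHM3 lay between 2.55 and 2.62 on the SKOV3 arrays and was well above background on 1 of the 4 MDAH arrays.

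Of the 16 genes of this chain that were tested, 1 was called in MDAH, none in SKOV3 and none for the difference, against 2.04%, 0.984% and 0.0965% of all genes. The call was RTP4, a chaperone of receptor transport that is also an interferon-stimulated gene (1.74 ± 0.20, adjusted p = 0.015). It rests on readings from -6.72 to -4.93 that were not well above background on any MDAH array, so no fold is given. In SKOV3 RTP4 was measured on every array, at -1.99 and -1.67 in the controls and -0.91 and -1.38 in silenced cells (0.69 ± 0.20, adjusted p = 0.152). In the mean of both lines RTP4 and ITPR3 were called as higher, where 5.56% of all genes were called in either direction. RTP4 (1.21, adjusted p = 0.012) rests there too on the MDAH readings. ITPR3 stood at 3.51 and 3.43 in the MDAH controls and 4.01 and 4.13 in the silenced cells, and at 3.74 and 3.65 and then 4.16 and 4.26 in SKOV3 (0.56 ± 0.10, adjusted p = 0.031).

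The other larger changes of the chain, none called, were ITPR2 (-0.96, adjusted p = 0.065) and PLCB2 (0.56, adjusted p = 0.288) in MDAH, and GNG13 (-0.94, adjusted p = 0.207) and ITPR1 (0.66, adjusted p = 0.285) in SKOV3. On the probe used here ITPR2 changed by -0.16 in SKOV3. Another ITPR2 probe, well above background on every array, went from a control mean of -0.95 to -2.93 in silenced MDAH cells. In SKOV3 that probe went from -0.58 to -1.86, and its silenced arrays lay below both controls in each line. Between the controls 10 of the 16 were called, against 57.4% of all genes, 3 as higher in MDAH (PLCB2 2.05, ITPR1 2.84 and TRPM4 2.65) and 7 as higher in SKOV3. As MDAH minus SKOV3 these were CALHM3 (-7.65, with 1 of 2 MDAH controls well above background), GNG13 (-1.87), GNAI3 (-1.83), GNAI2 (-1.24) and GNB1 (-0.74), with RTP4 at least 8.28-fold and RTP3 at least 3.59-fold higher in SKOV3. For the difference between the lines the largest were PLCB2 (0.997), ITPR2 (-0.79 on the probe used) and GNB3 (-0.73), none called.

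**Figure D5:**
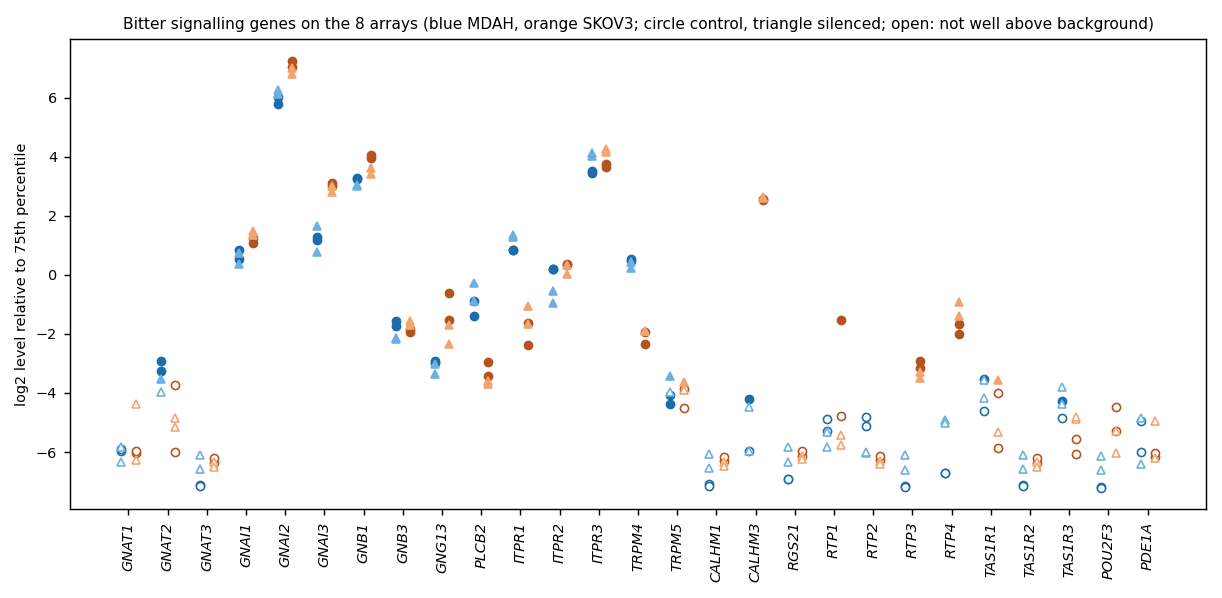
Level of the 27 bitter signalling genes (x axis) on the 8 arrays (y axis, log2 relative to the 75th percentile of the array), blue for MDAH and orange for SKOV3, circles for controls and triangles for silenced cells. Open points are not well above background. GNAT3 and POU2F3 have open points only, and CALHM3 is filled on all SKOV3 arrays, at 2.55 to 2.62.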

How the data were processed

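RNA of 8 samples was measured on single-colour Agilent arrays, 2 for each of 4 groups. Per the file headers, the authors deposited a processed intensity for each spot, with background subtracted and without scaling between arrays, from Feature Extraction 11.5.1.1 (the submitters' processing notes name 10.7.3.1). A log2 table, also deposited by the authors, correlated at 0.999999 or more on every array with quantile-normalized log2 signals minus each probe's median, and served as an alternative. The sources give different amounts of labelled RNA.

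Control and outlier spots were dropped, replicate spots were averaged as log2, and each array's 75th percentile was subtracted. Probes were named by RefSeq accession (28174 of 50599 probes), and the brightest probe stood for a gene. Genes with both arrays of at least 1 group well above background (15552) were fitted over all 8 arrays with limma 3.58.1 in R 4.3.3, with Benjamini-Hochberg adjustment and a threshold of 0.05. The residual degrees of freedom were 4 and the prior added 2.68. The fit was tested on simulated data, with no outcome given here. The number of arrays limits the precision.

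A bound compares the measured group's mean with the higher, on each array, of the dim probe's own signal and the array's lowest signal among all such measured probes. Intervals are 95% and unadjusted. The members, gene lists, markers and tests were chosen with earlier results of these data known. Named were the members, SFPQ, listed genes that passed or had the 3 largest changes among measured genes of a list, and the genes most and least correlated with TAS2R31. PRB3, genes named only for their detection and the motifs were named after their values were seen, and normexp used median intensities with an offset of 50. No coordinates of the array's build are given; start windows are those of RefSeq GRCh38.p14. The alternatives were other scalings, filters, probe choices, fits and left-out arrays. Same-numbered samples of the lines deviated together by r = 0.08 for controls and 0.36 for shRNAs. The shRNA numbers name constructs shared by the lines and the control numbers no known shared factor, so the number entered as a block in an alternative only.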

Additional observations from a re-analysis of the deposited data

How the results depend on the processing

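With 2 arrays per group, 1 array moved most calls, and dim receptors could not be measured in both groups of a comparison. Of the receptors besides TAS2R31, the 1 called in MDAH became 0 with quantile normalization, normexp or the authors' log2 values. It also became 0 without a filter on dim probes. With probes well above background on all 8 arrays TAS2R14 was not tested, and besides TAS2R31 only TAS2R30 was. In SKOV3 the 0 became 1 with normexp (TAS2R14) and 1 with the replicate block (TAS2R19, 1.27, adjusted p = 0.034), and 0 to 2 with an array left out. The filter for all 8 arrays also left out the 1 receptor called in the mean of both lines. It left out the 3 called between the controls as well, so it could not show whether these calls hold.

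Of the signalling genes the 1 called in MDAH became 0 with quantile normalization or the authors' values. It became 3 with an intensity trend and robust prior and 2 with the replicate block. With probes on all 8 arrays RTP4 was not tested, and no signalling gene was called. Of the genes next to the clusters the 1 in MDAH became 0 with median centring, quantile normalization, the authors' values or no filter. It became 0 with the mean of a gene's probes too, and 2 with normexp and with the replicate block. With probes on all 8 arrays PRR4 was not tested, and none of these genes was called. In SKOV3 their 0 became 1 with normexp, 1 with the trend and 2 with the replicate block, and 0 to 2 with an array left out, and the difference between the lines gave 0 to 1.

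The sign turned in 6 cases, none called. The difference between the lines became 0.14 for TAS2R14 and 0.030 for TAS2R5 with normexp. With an array left out it ran from -0.85 to 0.23 for TAS2R14, and the change ran from -0.062 to 0.312 for TAS2R30 in SKOV3, and for TAS2R50 from -1.26 to 0.26 in MDAH and from -0.34 to 1.21 in SKOV3. TAS2R31 in MDAH ran from -1.70 to -1.68 with an array left out. The causes were not tested.

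Over all genes, calls ranged from 9 to 1085 in MDAH, 0 to 666 in SKOV3, 30 to 1736 in the mean of both lines and 0 to 183 for the difference, against 317, 153, 865 and 15. Median centring moved the median of all genes by 0.11 in MDAH, 0.15 for the difference and -0.15 between the controls, and normexp by -0.10 for the difference. The replicate block, with the control and shRNA numbers shared by the lines, rests on shared constructs for the shRNAs and on shared numbers only for the controls, and within a line no paired analysis was possible because control and silenced samples share 1 number.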
